A study of Mus musculus with 36 samples.

Results

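At the end point of B cell to macrophage transdifferentiation (BMT), macrophages made with the mutant C/EBPα R35A and macrophages made with wild-type C/EBPα differed in 3187 of 16988 tested genes (18.8%). R35A macrophages had more transcript of interferon-stimulated genes, of the sialic acid-binding receptor gene Siglec1 and the scavenger receptor gene Marco, and of Lyz2, Apoe and the cathepsin genes Ctsl and Ctsd. They had less transcript of genes for MHC class II presentation, of the monocyte chemokine receptor gene Ccr2, of several C-type lectins, of Mefv, Nlrp3 and Il1b, and of a group of transcription factors that included Irf4, Runx3, Egr1 and Nr4a1. The comparison used 4 of the 36 RNA-seq libraries of the series, chosen by their labels alone: 2 of R35A and 2 of WT cells at 120 hours post-induction (hpi). C/EBPα is a transcription factor that directs myeloid differentiation, and in R35A the arginine at that position is replaced by alanine.

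Both groups came from B cells of mouse bone marrow (C57BL/6J), infected with a retrovirus that carries C/EBPα, WT or R35A, fused to the ligand-binding domain of the estrogen receptor (ER) and linked to the surface marker hCD4, by which infected cells were selected. The cells grew on mitomycin-inactivated mouse embryonic fibroblast (MEF) feeders with IL-7, IL-3, FLT-3 ligand, M-CSF and SCF, IL-7 being left out of renewed medium, and the fusion protein was activated with the estrogen E2. WT and R35A macrophages therefore share the vector, the ER fusion, the hormone, the feeders and the cytokines, and differ in the labels by the residue at position 35 alone. Cells were harvested with trypsin, and feeders were removed by letting them adhere to plastic before RNA was extracted. The labels name 2 replicates per construct and time, called biological replicates in the methods; no source used here says whether they came from separate mice.

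Macrophages are phagocytes that take up particles, digest them in lysosomes, present peptides on MHC class II and respond to microbial products and interferons with cytokines. Macrophages derived from recruited monocytes are known for the chemokine receptor Ccr2 and the surface protein Ly6c, whereas resident tissue macrophages carry more scavenger and phagocytic receptors. Both kinds depend on the transcription factor PU.1, encoded by Spi1, and on the growth factor receptor Csf1r.

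The 4 libraries held between 13198689 and 16702908 counted reads. Expression is given as CPM, a read count scaled to a common library size with TMM (trimmed mean of M values), for each library, and a gene was called at a change of at least 1.5-fold with an adjusted p of at most 0.05 in an edgeR quasi-likelihood fit of the 24 WT and R35A libraries. Log2 fold changes are of R35A against WT throughout, with their standard errors (SE). At 0 hpi the same fit called 0 genes between the constructs, DESeq2 called 1, and 1618 genes had an unadjusted p of at most 0.05 in edgeR. Between the 2 libraries of a construct the spread was larger at 120 hpi than at 18 hpi. The mean squared deviation over the counting variance was 2.41 in WT and 3.2 in R35A cells at 120 hpi, against 1.35 and 1.17 at 18 hpi. A fit of the 4 libraries alone, which uses only their own spread, called 2914 genes, of which 2774 were among the 3187 and had the same direction.

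The labelled cell type was checked against its markers. All 15 macrophage and monocyte markers were detected at 10 CPM or more. Their summed expression was 27197 and 27094 CPM in the WT libraries and 33867 and 37189 CPM in the R35A libraries. Lyz2, given below, was the most abundant of the 15 in each library and weighs most in these sums. The list had a median log2 fold change of −0.10, with 7 members higher and 8 lower by adjusted p alone. Csf1r stood at 2117 and 2084 CPM in WT and 1743 and 1766 CPM in R35A cells, and the gene of the F4/80 antigen, Adgre1, at 818 and 836 CPM in WT and 1067 and 1165 CPM in R35A cells. Of the 15, Mertk and Lyz2 were called higher in R35A cells and Ly6c2 and Ccr2 lower. Several markers that define other blood cells were at or under 3 counts in all 4 libraries, among them Cd3e, Nkg7, Ly6g, Elane and Clec9a. This held for 11 of the 14 T and NK cell markers listed, 4 of the 15 neutrophil markers and 3 of the 15 dendritic cell markers. The neutrophil markers summed to 2648 and 2713 CPM in WT and 2469 and 2644 CPM in R35A libraries. Mmp8 was the most abundant of them in each library, at 28327 to 35229 counts, and was not called. Of the lists of other leukocytes, neutrophil markers had 1 of 13 higher (S100a9) and 3 lower (Prtn3, Cxcr2 and Csf3r), the T and NK cell markers 1 of 5 higher (Zap70, at 0 counts in both WT libraries and at 1 and 5 counts in the R35A libraries), the erythroid and megakaryocyte markers 1 of 4 higher (Pf4), and the basophil, mast cell and eosinophil markers 2 of 8 higher (Mcpt8 and Il1rl1) and 2 lower (Hdc and Kit). S100a9 was not called without R35A replicate 1 (log2 fold change 1.18) or WT replicate 2 (1.21), nor Csf3r without R35A replicate 2 (−0.55). The basophil, mast cell and eosinophil markers summed to 21.2 to 23 CPM in WT and 54.3 to 65.2 CPM in R35A cells. Of 13 tissue macrophage markers 4 were higher (Marco, P2ry12, Folr2 and Lyve1) and 2 lower (Car4 and Tmem119), and Timd4, Clec4f, Vsig4 and Gata6 were at or under 3 counts in each library. Mitochondrial transcripts took 1.78% and 1.89% of counts in WT and 1.5% and 1.74% in R35A libraries.

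Transcripts of the fibroblast feeders were more abundant in the R35A libraries. The 20 fibroblast markers, collagen genes among them, summed to 615 and 542 CPM in WT and to 1668 and 1787 CPM in R35A libraries, and 16 of the 20 were called higher, 1 (Thy1) lower and Lum was at 0 in all 4. The same sum had been between 6545 and 15606 CPM in the libraries at 0 and 18 hpi. To set each gene beside this, the ratio of its level to the feeder sum was taken in each of the 20 libraries before 120 hpi. The lowest ratio was multiplied by the 1148 CPM by which the sums differ. A small result means that this scaled level was small beside the difference at 120 hpi. The gene need not have been absent from libraries rich in feeder transcripts. It was under 10% of the observed difference for 802 of the 2103 genes higher in R35A cells and at or above 50% for 465. It was under 10% for 98 of the 138 members of the function lists that were higher. Genes at or above 10% are marked as feeder-linked, Mcpt8 and Il1rl1 among them, and the part of the feeders in their values was not tested. The earlier libraries also held the converting B cells, so the mark does not show that feeders express a gene. In bulk RNA, fewer cells of a type and less RNA per cell cannot be told apart.

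Of the 3187 genes called, 2103 were higher in R35A macrophages (12.4% of the genes tested) and 1084 were lower (6.38%), and the median log2 fold change over all tested genes was 0.05. With adjusted p alone, 46% of genes differed, 27% being higher and 19% lower. Among the called genes, 1353 were at least 2-fold higher and 567 at least 2-fold lower.

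**Figure D1:**
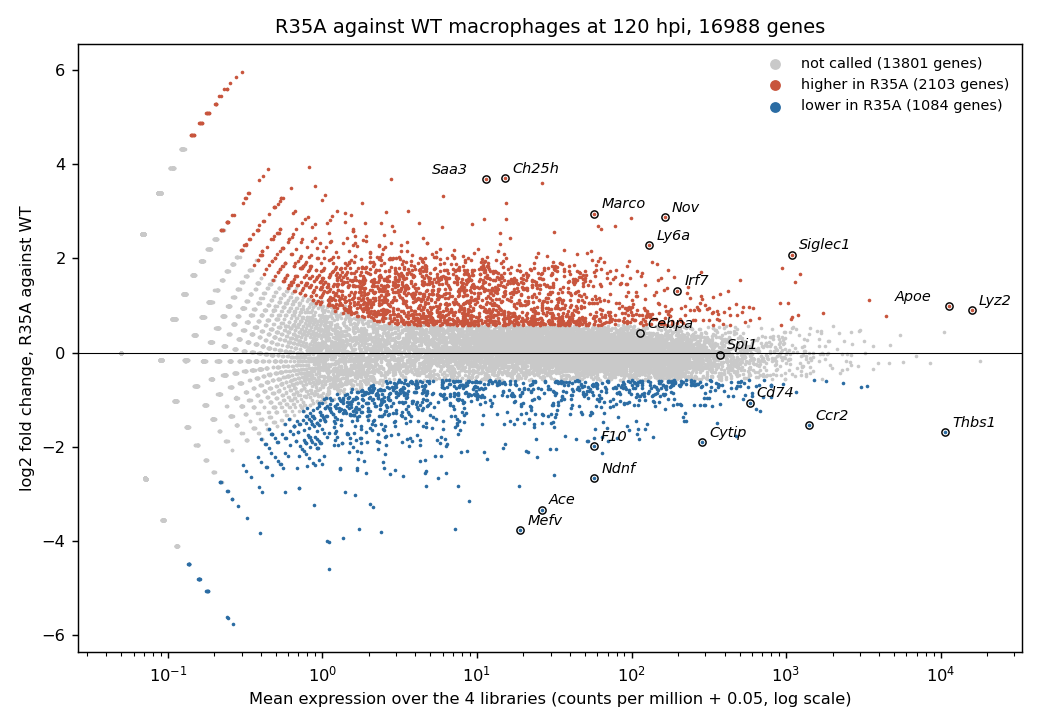
Log2 fold change of R35A against WT macrophages at 120 hpi (vertical axis) against mean expression over the 4 libraries in CPM plus 0.05 (log scale), 1 point for each of 16988 genes; coloured points are the 2103 genes called higher and 1084 called lower. Siglec1, Apoe, Lyz2, Ccr2 and Thbs1 are differences at high expression, and Spi1 and Cebpa, at −0.05 and 0.41, were not called.

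The factor itself and its partner were not called. Cebpa, whose reads may come from the endogenous gene or the retrovirus, stood at 101 and 94.3 CPM in WT and 141 and 119.7 CPM in R35A cells (log2 fold change 0.41, SE 0.056, adjusted p = 2.30e-08, under the fold threshold), with no overlap between the constructs. Spi1 stood at 389 and 366 CPM in WT and 379.9 and 350.0 CPM in R35A cells (−0.05, SE 0.039, adjusted p = 0.32), and the ranges of the constructs overlapped. Both values lay within the 1.5-fold limit.

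The 15 largest increases among genes at 20 CPM or more in the higher construct, all with replicates that did not overlap, were led by Ch25h, which makes an oxysterol from cholesterol. Ch25h (mm10, chromosome 19, 34473778 to 34475164) rose from 2.40 and 1.88 CPM in the WT libraries to 29.3 and 27.3 CPM in the R35A libraries (log2 fold change 3.71, SE 0.16, adjusted p = 3.61e-26). The acute-phase gene Saa3 rose from 1.58 and 1.70 to 22.6 and 19.6 CPM (3.68, SE 0.17). Marco, a scavenger receptor that binds bacteria and inert particles, rose from 13.8 and 12.5 to 103 and 101 CPM (2.95, SE 0.081). In each case both R35A libraries stood several-fold above both WT libraries. Nov, which encodes a secreted CCN family matrix protein (Ccn3 in RefSeq), rose from 42.4 and 36.0 to 290.3 and 287 CPM. Fpr1, the receptor for bacterial formyl peptides, rose from 24 and 23.8 to 163 and 183 CPM. Serpinb2, an inhibitor of plasminogen activators, rose from 17.9 and 17.6 to 107 and 113 CPM. These 3 encode proteins of the matrix, of chemotaxis and of protease control. The others were Akr1c18, a steroid-metabolising enzyme (2.70), Gfra4 (2.84), the secreted protease gene Htra1 (3.18), the activating myeloid receptor gene Tarm1 (2.57), Nat8l (2.44), the ubiquitin ligase gene Rnf128 (2.31), Ly6a (2.28), Pcdhac2 (3.61) and the feeder-linked Dclk1 (2.55). Pcdhac2 shares its last exons with the other genes of the protocadherin alpha cluster, and Akr1c18 has close paralogs, so reads of these loci may be assigned in part to relatives.

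The 15 largest decreases were led by Mefv, which encodes pyrin, the sensor of an inflammasome. Mefv (chromosome 16, 3707218 to 3718097) fell from 36.1 and 34.5 CPM in WT to 2.48 and 2.66 CPM in R35A libraries (log2 fold change −3.77, SE 0.16, adjusted p = 1.09e-24). Ace, the angiotensin-converting enzyme gene, fell from 48.7 and 46.9 to 5.36 and 4.10 CPM (−3.35, SE 0.12). Both had R35A libraries at a small fraction of the WT level. B3gnt5, a glycosyltransferase gene, fell from 27.9 and 37.6 to 5.52 and 3.74 CPM. Cytip, which encodes a regulator of leukocyte adhesion, was the most highly expressed of the group and fell from 434 and 471 to 121 and 121 CPM (−1.90, SE 0.039). F10, the gene of coagulation factor X, fell from 93.4 and 88.8 to 23.3 and 22.4 CPM. The remaining decreases were those of Ndnf (−2.68), Rab44 (−2.60), Cyp4f37 (−2.21), the immunoglobulin heavy chain gene Ighm (−2.14), the lysophospholipid receptor gene Gpr174 (−2.11), Ramp1 (−2.10), Clec2i (−2.06), the corepressor gene Cbfa2t3 (−2.02), Itm2a (−1.95) and the protease gene Htra3 (−1.88). These 30 calls held in each of the fits that left out 1 library at 120 hpi. Their choice by large changes without overlap makes this likely, so it is no separate support.

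The function of the end-point cells was described through 33 lists of genes. Across the lists, 880 genes were tested, of which 138 were higher and 110 lower in R35A macrophages. The lists with the highest share of higher members were the interferon-stimulated genes and the chemokines. Those with the highest share of lower members were MHC class II presentation and alternative activation genes, the latter with as many higher as lower. The plot of shares by list sets these beside the share among all tested genes.

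**Figure D2:**
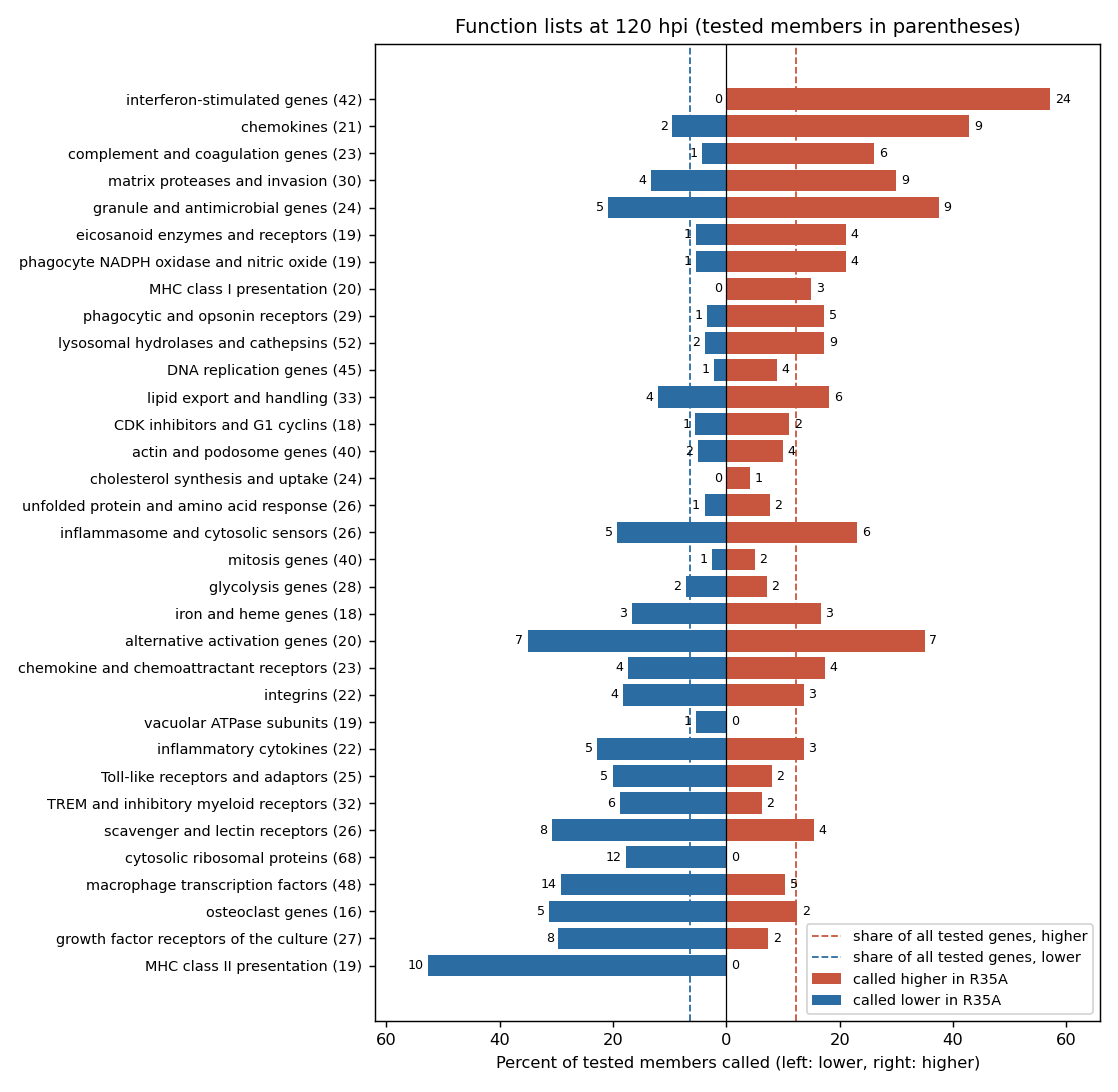
Percent of the tested members of 33 function lists called higher (right) or lower (left) in R35A macrophages at 120 hpi, with the number called at each bar's end; dashed lines give the share of all 16988 tested genes (12.4% higher, 6.38% lower). Interferon-stimulated genes (24 of 42 higher, 0 lower) and MHC class II presentation (0 higher, 10 of 19 lower) stand at the ends.

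Interferon-stimulated genes, which encode antiviral effectors and their regulators, were the list with the most one-sided increase. Of the 42 tested, 24 were higher, 0 were lower at the call threshold and 18 were not called, with a median log2 fold change of 0.66. All 24 stood under 10% in the feeder comparison. Irf7, the transcription factor that amplifies the interferon response, rose from 117 and 109 CPM in WT to 280.2 and 283 CPM in R35A cells (1.31, SE 0.053, adjusted p = 7.88e-27). Oas1g, one of the oligoadenylate synthetases that activate RNase L, rose from 13.9 and 13.9 to 49.4 and 49.4 CPM (1.83, SE 0.10). Oas3 rose from 82.2 and 86.0 to 195 and 199.7 CPM (1.23, SE 0.058). The R35A libraries lay above the WT libraries for each of the 3, and Oas1a, Oas2, Oasl1 and Oasl2 were also called higher, although close paralogs such as Oas1a and Oas1g may exchange reads. Usp18, a brake on interferon signalling, rose from 27.3 and 27.4 to 62.5 and 65.2 CPM (1.22). Bst2, which tethers budding virions, rose from 185 and 185 to 367 and 339.8 CPM (0.93). The ubiquitin-like modifier gene Isg15 rose from 53.1 and 54.0 to 96.3 and 87.5 CPM (0.78), and Ifit1 rose from 30.3 and 36.7 to 61.0 and 69.0 CPM (0.96). The RNA sensor genes Ddx58, which encodes RIG-I, and Dhx58 rose as well (0.85 and 0.67). Of the genes upstream, Stat2 rose (0.71), whereas the receptor gene Ifnar1 was at 376 and 375 CPM in WT and 365 and 377 CPM in R35A cells. The calls of Ifit3, Xaf1 and Iigp1 depended on single libraries: without R35A replicate 2 they had log2 fold changes of 0.58, 0.55 and 0.58 and were not called. Ifit3 was also not called without WT replicate 1 (0.58), nor Xaf1 without WT replicate 2 (0.50), and neither was called in the fit of 4 libraries.

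The promoters of the interferon-stimulated genes were inspected because the members moved together. RefSeq promoters (GRCm38.p6, which has the coordinates of mm10) were at hand for 31 of the 42 genes, and the core of the interferon-stimulated response element (GAAA, any 2 bases, GAAA) was searched on both strands of the 250 bases before the start site. It was present in 18 of the 31 (58.1%), against 3.46% of all 27025 genes with a promoter, and in 11 of the 18 called genes and 7 of the 13 not called. Among all genes higher in R35A cells 3.98% held it, and among the lower genes 4.22%, against 3.33% of tested genes. The list was chosen as interferon-stimulated genes, which makes a high share in it likely, so that share is no separate support. Shown are the 150 bases that precede the start site of the strongly changed Oas3, of Isg15 and Bst2 with overlapping matches, and of Ifit1 with matches on the opposite strand, with the matches in capitals.

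Oas3 (chr5:120777660-120777809, minus strand): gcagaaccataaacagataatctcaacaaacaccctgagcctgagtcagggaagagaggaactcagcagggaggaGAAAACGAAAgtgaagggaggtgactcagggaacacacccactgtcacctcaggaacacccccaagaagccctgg

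Isg15 (chr4:156200819-156200968, minus strand): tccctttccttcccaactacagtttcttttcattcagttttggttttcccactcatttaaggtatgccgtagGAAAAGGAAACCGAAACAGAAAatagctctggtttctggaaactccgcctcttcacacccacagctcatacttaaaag

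Bst2 (chr8:71537473-71537622, minus strand): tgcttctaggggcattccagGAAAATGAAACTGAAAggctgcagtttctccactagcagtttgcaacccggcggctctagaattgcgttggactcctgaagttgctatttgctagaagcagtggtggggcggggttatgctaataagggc

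Ifit1 (chr19:34640739-34640888, plus strand): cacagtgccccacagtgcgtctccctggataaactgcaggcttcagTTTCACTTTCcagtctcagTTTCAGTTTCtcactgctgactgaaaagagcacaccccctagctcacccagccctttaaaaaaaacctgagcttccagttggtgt

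The match in Oas3 began 75 bases before the start site, those in Isg15 at 78, 72 and 66 bases, those in Bst2 at 130 and 124 bases and those in Ifit1 at 104 and 85 bases. The 250 bases of Irf7 held no match of this form. A match describes the sequence and no binding was measured here.

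MHC class II presentation was the list with the most one-sided decrease. Of 19 members tested, 0 were higher, 10 were lower and 9 were not called, with a median log2 fold change of −0.66. Cd74, the invariant chain that escorts class II molecules, fell from 817 and 753 CPM in WT to 392 and 357 CPM in R35A libraries (−1.07, SE 0.041, adjusted p = 8.28e-28). H2-DMa, part of the peptide exchanger H2-DM, fell from 233 and 222 to 119 and 112 CPM (−0.98, SE 0.052). The class II chain gene H2-Aa fell from 25.0 and 20.2 to 11.4 and 12.4 CPM (−0.93) and its partner H2-Ab1 from 27.1 and 23.1 to 14.7 and 13.4 CPM (−0.84). The 2 constructs did not overlap for any of these 4 genes, which was not counted over all tested genes and adds no support to the calls. H2-Eb1, H2-DMb2, H2-Oa and H2-Ob fell too, H2-Oa from 2.07 and 1.97 CPM. The costimulatory ligand genes Cd86 (224 and 238 to 143 and 155 CPM, −0.64) and Pdcd1lg2 (from 1.33 and 1.25 CPM) were lower, and Cd80 was at 143 and 158 CPM in WT and 95.6 and 117 CPM in R35A cells (−0.50, under the fold threshold). Ciita, the master regulator of class II genes, was at a low level, with 1.66 and 1.97 CPM in WT and 1.68 and 1.51 CPM in R35A cells, and was not called. In MHC class I presentation 3 of 20 members, a share near that of all genes, were called higher (H2-Q4, H2-Q6 and H2-Q7, closely related genes whose reads may be shared). In the same list 0 were called lower and the median was 0.39. By adjusted p alone, with no fold threshold, 16 of the 20 were higher and 0 lower, against 27% of all genes higher and 19% lower.

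B cells also express class II genes, and the summed markers of the starting B cells were lower in R35A cells. Of 18 B cell markers 4 were lower and 5 higher. The latter (Ebf1, Pou2af1, Cd22, Spib and Vpreb3) were all under 6 CPM and feeder-linked but for Cd22, with the constructs overlapping for Spib. For B cell markers the feeder-linked mark cannot separate feeders from the B cells of the earlier libraries. The 18 summed to 399 and 400.5 CPM in WT and to 206 and 212 CPM in R35A libraries. Ighm fell from 108 and 104 to 21.7 and 26.1 CPM, the antigen receptor chain gene Cd79b from 82.3 and 74.9 to 33.7 and 31.1 CPM, and Cd79a from 41.7 and 42.1 to 20.9 and 19.1 CPM. The part of residual B cell transcripts in the class II difference was not tested. At 0 hpi, where the B cell markers summed to 8112 to 8767 CPM, Cd74 stood at 263 CPM in WT and 233 CPM in R35A cells. The level of Cd74 in any B lineage cells left at 120 hpi was not measured.

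The Y box CTGATTGG of class II promoters, searched in the same way, was found in 4 of 14 promoters of the list (28.6%). The share was 4.43% of all genes with a promoter and 6.1% of tested genes. Of the list, 3 of the 7 called genes and 1 of the 7 not called held it. The list was chosen as class II genes, which makes a high share in it likely. The promoter of H2-Aa is shown for the class II genes, with the motif in capitals 51 bases before the start site.

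H2-Aa (chr17:34287824-34287973, minus strand): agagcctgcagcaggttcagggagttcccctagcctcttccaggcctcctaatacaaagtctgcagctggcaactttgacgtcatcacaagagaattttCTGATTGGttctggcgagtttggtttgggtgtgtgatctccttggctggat

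Receptors for uptake moved in both directions. Siglec1, the sialic acid receptor CD169, rose from 428 and 409 CPM in WT to 1767 and 1764 CPM in R35A libraries (2.08, SE 0.038, adjusted p = 3.69e-41). The scavenger receptor gene Msr1 rose from 794 and 830.3 to 1308 and 1365 CPM (0.72), as did Marco, and Colec12, which is feeder-linked (1.45). Among the 26 scavenger and lectin receptors these 4 were higher and 8 were lower, with a median of −0.23. The lower group held C-type lectins of dendritic cells and monocytes. Clec4e, the receptor Mincle for mycobacterial glycolipids, fell from 926 and 986 to 385 and 418 CPM (−1.25, SE 0.037). Clec10a, a galactose-binding lectin, fell from 329 and 333 to 119 and 123 CPM (−1.45, SE 0.058), and its neighbour Mgl2 from 57.9 and 56.1 to 24.6 and 21.9 CPM (−1.30). Clec4a1, Clec4a3, Clec4b1, Olr1 and Cxcl16 completed the lower group, and the 3 Clec4 genes belong to a cluster of similar genes. Mrc1, the mannose receptor, was not called, at 2474 and 2566 CPM in WT and 2733 and 2970.3 CPM in R35A cells.

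Among 29 phagocytic and opsonin receptors and bridging proteins, 5 were higher (17.2%, against 12.4% of all genes) and 1 was lower. Mertk, a receptor for apoptotic cells, rose from 121 and 127 to 222 and 233 CPM (0.88, SE 0.052), and Gas6, the ligand that bridges Mertk to dying cells, rose from 251 and 234 to 603 and 598 CPM (1.31, SE 0.038). Tyro3 and Mfge8 rose as well but were feeder-linked, and Stab2 rose from 7.71 and 6.36 to 21.2 and 20.4 CPM. Axl, a receptor related to Mertk, was at 271 and 258 CPM in WT and 253 and 257 CPM in R35A cells and was not called. The Fcγ receptor genes Fcgr1 (408 and 392 CPM in WT and 364 and 385 CPM in R35A cells) and Fcgr3 (885 and 874 CPM in WT and 1058 and 1116 CPM in R35A cells) and the complement receptor gene Itgam (464 and 462 CPM in WT and 554 and 594 CPM in R35A cells) were not called. The lower gene was Itgb3 (−0.69), whose call was lost without R35A replicate 1 (−0.51).

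**Figure D3:**
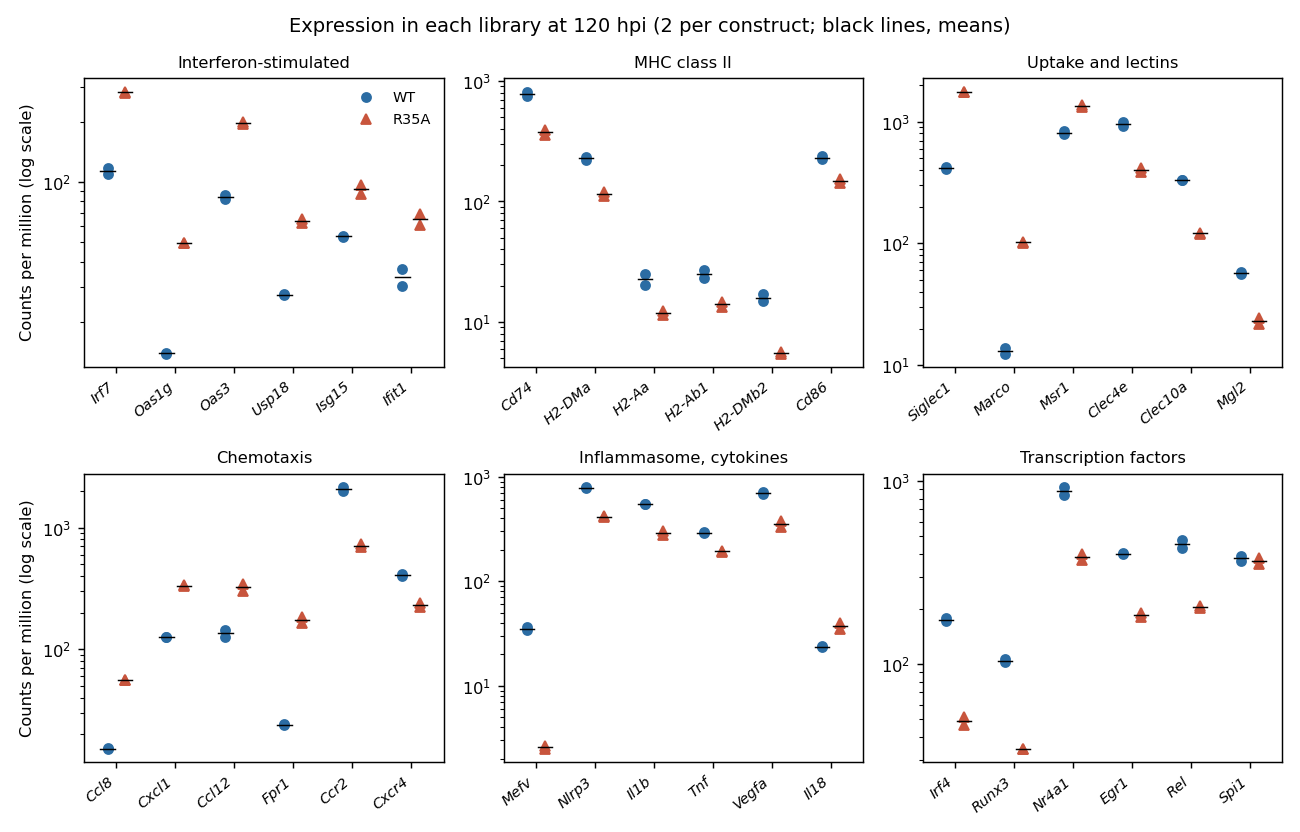
CPM (log scale) in each of the 2 WT (circles) and 2 R35A (triangles) libraries at 120 hpi for 6 genes in each of 6 groups, with means as lines. The constructs do not overlap for any of these genes but Spi1, and the spread between replicates is small beside most differences. The genes were picked from the lists, and overlap was not counted over all tested genes.

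Some chemokine genes were higher and Ccr2, the receptor of monocyte recruitment, was lower. Of 21 chemokine genes 9 were higher, 2 lower and 10 not called, with a median of 0.45. Relative to 0 hpi, where it had few reads, the fitted difference of Ccl8 had the opposite sign (−1.23). At 120 hpi Ccl8 rose from 15.1 and 15.3 to 55.8 and 56.0 CPM (1.88, SE 0.088), Cxcl1, a neutrophil attractant, from 127 and 127 to 339 and 329.6 CPM (1.40, SE 0.044), and Ccl12 from 143 and 127 to 303 and 341 CPM (1.26). Pf4 rose from 321 and 308 to 657 and 621 CPM and Ccl7, a Ccr2 ligand, from 829 and 793 to 1383 and 1365 CPM. Cxcl3 and Cx3cl1 rose from lower levels, and Cxcl12 and Cxcl14 were feeder-linked. The 2 lower genes were Ccl22 (4.48 and 3.85 to 0.640 and 0.863 CPM) and Cxcl16 (62.1 and 59.3 to 38.0 and 40.2 CPM). Ccr2 fell from 2013 and 2158 CPM in WT to 693 and 731 CPM in R35A cells (−1.55, SE 0.039, adjusted p = 2.07e-35). Of the 23 receptors tested, Cxcr4, Gpr183 and Cxcr2, the last at 2.65 and 2.24 CPM in WT, were also lower, and Fpr1, P2ry12, P2ry13 and Cxcr3 were higher. Ly6c2, a surface marker of inflammatory monocytes, fell from 254 and 244 to 125 and 126 CPM (−0.99).

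Genes that sense and signal microbial products were divided. Of 25 Toll-like receptors and adaptors, the endosomal RNA sensor genes Tlr3 (9.70 and 10.7 to 28.9 and 34.6 CPM, 1.65) and Tlr8 (155 and 175 to 284 and 336 CPM, 0.91) were higher. Tlr9, the sensor of unmethylated DNA (77.2 and 69.9 to 37.5 and 41.2 CPM, −0.90), Ly86, Ticam1, Irak2 and Tlr5 were lower, Tlr5 with a call that was lost without WT replicate 1 (−0.57). Of 26 inflammasome and cytosolic sensor genes 6 were higher and 5 lower. Nlrp3 fell from 774 and 799 to 418 and 411 CPM (−0.92, SE 0.032), and Il1b, whose product inflammasomes release, fell from 552 and 545 to 279.7 and 301 CPM (−0.92, SE 0.04). Mefv, given above, belongs to the same list. Nod2 was lower but was not called without R35A replicate 2 (−0.54), and Nlrp12, from 0.829 and 0.986 CPM, lost its call when any 1 of the 4 libraries was left out. The higher members were Nlrp1b, Il18, Casp4 (not called without WT replicate 1, 0.55) and Zbp1, a sensor of Z-form nucleic acids (88.5 and 88.3 to 159 and 165 CPM, 0.88), beside Ddx58 and Dhx58. Without a low-count filter, or without R35A replicate 2, 3 members of this list were lower.

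Among 22 cytokine genes 3 were higher and 5 lower. Vegfa, the angiogenic factor, fell from 718 and 688 to 374 and 332 CPM (−0.99, SE 0.039). Tnf fell from 295 and 289 to 192 and 196 CPM (−0.59), just past the fold threshold, and was not called without WT replicate 1 (−0.58). Il18 and Il16 were higher, each with a call that rested on 1 library (0.58 without R35A replicate 2 and 0.58 without R35A replicate 1), and Lif was feeder-linked. Tnfsf9 was lower too, as was Tnfsf13b, which was not called without R35A replicate 1 or without WT replicate 1 (−0.57 and −0.56).

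Several transcription factors of macrophages were lower. Of 48 tested, 14 were lower and 5 higher, with a median of −0.25, and Spi1 was not among them. Irf4, which is required for monocyte-derived dendritic cells and for alternative activation, fell from 171 and 178 CPM in WT to 51.2 and 46.4 CPM in R35A libraries (−1.84, SE 0.053, adjusted p = 6.53e-33). Runx3 fell from 106 and 102 to 34.3 and 34.3 CPM (−1.60, SE 0.064). Batf3, a factor of conventional dendritic cells, fell from 7.29 and 5.91 to 1.84 and 1.80 CPM (−1.86). Signal-induced factors formed another part of the lower group: Nr4a1 fell from 926 and 840.1 to 399.6 and 372 CPM (−1.2), Egr1 from 403 and 397 to 179.7 and 189.8 CPM (−1.11) and Egr3 from 45.8 and 43.5 to 15.4 and 16.3 CPM (−1.5). Egr2, Fosl2, the NF-κB subunit gene Rel (431 and 476 to 203 and 208 CPM) and Irf5 (422 and 421 to 226 and 208 CPM) were lower too, as were Runx1, Bhlhe40, Bach1 and Pparg. The higher factors were Jun (461 and 432 to 739 and 700.2 CPM, 0.69), Tfec, Nr1h3, which encodes the oxysterol receptor LXRα (5.06 and 5.73 to 12.2 and 10.6 CPM, 1.08), Cebpd and the feeder-linked Bhlhe41. The call of Cebpd was lost without R35A replicate 1 (0.50). Some of these factors respond to handling at harvest, whose part was not tested. Of 16 harvest response genes 2 were higher (Jun and the feeder-linked Hspa1b) and 2 lower (Egr1 and Nr4a1), and their sum was 10735 and 10265 CPM in WT and 9958 and 9559 CPM in R35A libraries.

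Markers of dendritic cells were divided. Of 12 tested, Flt3 (3.81 and 3.67 to 0.400 and 0.360 CPM), Batf3, Irf4, Xcr1 and Dpp4 were lower, and Bst2 and the feeder-linked Zbtb46 were higher. Itgax, which encodes CD11c and stands in the list of phagocytic receptors, was at 177 and 173 CPM in WT and 129.6 and 129 CPM in R35A cells (−0.44, not called). The 15 markers present in the table summed to 396 and 395 CPM in WT and 436 and 405 CPM in R35A libraries, with Bst2 the most abundant of them in each library.

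In digestion and lipid handling, several abundant transcripts were higher. Of 52 lysosomal genes 9 were higher and 2 lower, with a median of 0.19. The share called higher was 17.3%, against 12.4% of all genes. Ctsl, a lysosomal cysteine protease, rose from 581 and 595 to 1804 and 1919 CPM (1.66, SE 0.033). Ctsd, an aspartic protease, rose from 3361 and 3159.7 to 5616 and 5557 CPM (0.78, SE 0.03), and the lysosomal glycoprotein gene Gpnmb from 2207 and 2122 to 4614 and 4839 CPM (1.13). The constructs did not overlap for these 3 called genes, which was not counted over all tested genes. The higher Ctsf, Sgsh, Smpd1 and Cd63 were feeder-linked, Sgsh not being called without WT replicate 2 (0.56). Ctss, which trims the invariant chain, was at 2657 and 2686 CPM in WT and 2497 and 2674 CPM in R35A cells and was not called. Of the 19 vacuolar ATPase subunit genes, which acidify the lysosome, 0 were higher and 1 (Atp6v0c) lower. Lyz2, which encodes the lysozyme of macrophages, rose from 11180.0 and 10965 to 19324 and 21931 CPM (0.90, SE 0.03), and the antimicrobial gene Wfdc17 from 610.0 and 580.3 to 1163 and 1321 CPM (1.06). In all, 9 of 24 granule and antimicrobial genes were higher and 5 lower. Prtn3, a protease of neutrophil precursors, fell from 10.9 and 10.7 to 1.44 and 2.16 CPM and the ribonuclease gene Ear2 from 15.2 and 12.5 to 3.60 and 2.95 CPM, while the granule protease gene Ctsg was called higher at 0 counts in both WT libraries and 2 and 3 counts in the R35A libraries.

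Apoe, the lipoprotein secreted by macrophages in lipid export, rose from 7911 and 7303 CPM in WT to 15874 and 14254 CPM in R35A libraries (0.99, SE 0.038). The sterol exporter gene Abca1 rose from 415 and 424 to 637 and 685 CPM (0.66). Lpl, the lipase that releases fatty acids from lipoproteins, fell from 3738 and 3904 to 2342 and 2265 CPM (−0.73), and Hilpda, which holds lipid in droplets, from 356 and 339.7 to 155 and 165 CPM (−1.12). Of the 33 genes of lipid export and handling 6 were higher and 4 lower. Cholesterol synthesis showed 1 of 24 genes called (Lss), feeder-linked and not called in the fit of 4 libraries, without R35A replicate 2 (0.53) or without WT replicate 2 (0.49). Alox5, the enzyme that starts leukotriene synthesis, rose from 61.6 and 63.1 to 158 and 148 CPM (1.29), 1 of 4 higher among 19 eicosanoid genes.

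Of 18 iron and heme genes 3 were higher, 3 lower and 12 not called. Hmox1, which degrades heme and is feeder-linked, rose from 687 and 661 to 1418 and 1372 CPM (1.05), and the iron exporter gene Slc40a1 from 52.7 and 57.2 to 124 and 144 CPM (1.29, SE 0.073). Their repressor Bach1 fell from 432 and 434 to 274 and 275 CPM (−0.66). The cystine transporter gene Slc7a11 fell from 44.3 and 48.4 to 17.4 and 18.4 CPM (−1.37). Of 19 oxidase and nitric oxide genes 4 were higher and 1 lower. The NADPH oxidase subunit gene Cybb was not called, at 2841 and 2952 CPM in WT and 2312 and 2489.8 CPM in R35A cells, and Nos2 was at 1.16 and 1.08 CPM in WT and 1.36 and 1.37 CPM in R35A libraries. Arg1, which competes with Nos2 for arginine, rose from 40.0 and 39.1 to 88.0 and 82.1 CPM (1.1). Genes of alternative activation as a list had 7 of 20 higher and 7 lower: Arg1, Igf1 (408 and 424 to 772 and 829 CPM) and Il4ra (318 and 309 to 551 and 547 CPM) stood against Clec10a, Mgl2, Ccl22, Tgm2 and Pparg.

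Matrix and coagulation genes included a very abundant transcript that fell. Thbs1, a secreted adhesive glycoprotein, fell from 16126 and 16462 CPM in WT to 4986 and 5086 CPM in R35A libraries (−1.69, SE 0.022, adjusted p = 7.85e-48). The elastase gene Mmp12 fell from 2802 and 2877 to 1780.3 and 1846 CPM (−0.65) and the urokinase receptor gene Plaur from 830.1 and 821 to 543 and 474 CPM (−0.70). Spp1, which encodes osteopontin, rose from 599.8 and 592 to 1508 and 1858 CPM (1.5, SE 0.043). Of 30 members 9 were higher and 4 lower, but 5 of the higher members, among them Adam9, Adamts1, Timp1 and Timp2, were feeder-linked, and Adam9 was not called without R35A replicate 2 (0.55) or WT replicate 1 (0.56). Among 22 integrins, Itga1 (164 and 169 to 48.3 and 52.0 CPM, −1.73), Itgb7 (159 and 152 to 57.2 and 56.0 CPM, −1.46), Itga4 and Itgb3 were lower. Itga4 and Itgb7 form a receptor for gut homing. Itga3 was higher, and Itga2 and Itgb8 were higher at low counts, feeder-linked and not called without R35A replicate 2 (0.69 and 0.97). Of 40 actin and podosome genes 4 were higher, all feeder-linked, and 2 were lower, Coro1a from 1043 and 941 to 628 and 605 CPM (−0.69) and Actg1, at only 10.2 and 10.2 CPM in WT, which has many similar copies in the genome. By adjusted p alone 6 of the 40 were higher and 22 lower, with a median of −0.15. Osteoclast genes had 5 of 16 lower, among them the fusion genes Dcstamp (10.5 and 9.77 to 2.64 and 2.66 CPM) and Ocstamp, and 2 higher. Of 23 complement and coagulation genes 6 were higher, Cd55 being feeder-linked and C1s1 rising from 13.7 and 12.0 to 45.3 and 44.8 CPM (1.81), and F10 was lower.

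Some receptors for growth factors and cytokines were lower. Of 27 tested 8 were lower and 2 higher, with a median of −0.33. Csf2ra, a chain of the receptor for GM-CSF, fell from 545 and 479 to 254 and 224 CPM (−1.1, SE 0.047). Il1r2, a decoy receptor for interleukin-1, fell from 107 and 113 to 26.7 and 33.2 CPM (−1.87, SE 0.072). Il3ra fell from 56.5 and 51.0 to 30.5 and 30.2 CPM and Il7r from 101 and 114 to 49.4 and 51.7 CPM. IL-3, FLT-3 ligand, M-CSF and SCF were in the medium of both constructs. Kit was lower from 0.746 and 0.538 CPM and Flt3 from 3.81 and 3.67 CPM, and Csf1r was within 1.5-fold. Among 32 inhibitory and activating myeloid receptors, Cd200r4 rose from 20.0 and 20.3 to 87.1 and 92.0 CPM (2.15, SE 0.081), as did Pira2, and 6 were lower, Slamf7 from 92.9 and 99.5 to 31.3 and 37.5 CPM (−1.48) and Lilr4b from 3962 and 4301 to 2429 and 2646 CPM (−0.70).

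Few proliferation genes passed the 1.5-fold threshold. Of 45 replication genes 4 were higher and 1 lower, of 40 mitosis genes 2 were higher and 1 lower, of 18 G1 regulators 2 were higher and 1 lower, and Mki67 was at 211 and 226 CPM in WT and 217 and 237 CPM in R35A cells. By adjusted p alone, with no fold threshold, 28 of 40 mitosis genes were higher and 1 lower (median log2 fold change 0.26), and 23 of 45 replication genes were higher and 5 lower (median 0.19), against 27% of all genes higher and 19% lower. Ccnd1 rose from 239.7 and 239.8 to 442 and 433 CPM (0.87) and Myc fell from 129 and 132 to 65.3 and 60.6 CPM (−1.05). Of 68 ribosomal protein genes 12 were called lower, 0 were called higher and the median was −0.43. By adjusted p alone 50 of the 68 were lower and 0 higher. Rplp0 was the most abundant of the 12 (1013 and 945 to 622 and 598 CPM, −0.68). Ribosomal protein genes have many pseudogenes, and several had counts of only a few CPM. The number called lower was 19 in the fit of the 4 libraries alone, 20 without WT replicate 2 and 7 without a low-count filter. Of 28 glycolysis genes 2 were higher, the feeder-linked Ldhb and Hk3, which rose from 371 and 370.0 to 679 and 659 CPM (0.85), and 2 lower, the glucose transporter gene Slc2a3 (54.5 and 57.9 to 23.7 and 26.1 CPM, −1.17) and the hypoxia-induced Egln3. Of 26 unfolded protein and amino acid response genes 2 were higher, the chaperone gene Pdia4 among them (179 and 181 to 369.8 and 379.5 CPM), and 1 lower.

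The gap at the end point was set beside that at 18 hpi. At 18 hpi, when the cells were in transit, 1173 genes were higher in R35A cells (6.90% of those tested) and 538 lower (3.17%), 10.1% together. The libraries at 18 and 120 hpi are separate, so the lists of calls can be compared. Of the 3187 genes called at 120 hpi 547 were also called at 18 hpi, 17.2% of the former and 32.0% of the 1711 latter. Of these 238 were higher at both times and 60 lower at both, whereas 174 were higher at 18 hpi and lower at 120 hpi, and 75 the reverse. The change of the gap itself was tested: it passed the thresholds for 3791 genes (22.3%), 1995 of them upward and 1796 downward.

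**Figure D4:**
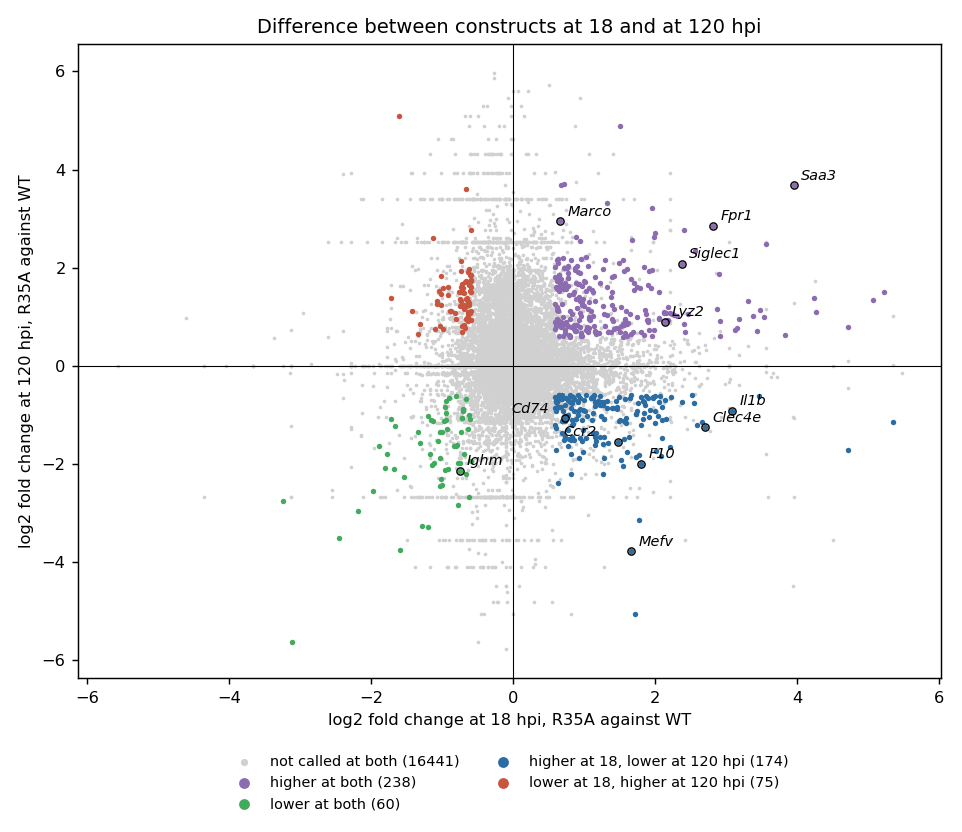
Log2 fold change of R35A against WT at 18 hpi (horizontal) and 120 hpi (vertical) for 16988 genes, coloured by the calls at both times. The lower right quadrant holds 174 genes higher at 18 hpi and lower at 120 hpi, Ccr2, Clec4e, Il1b, Mefv and Cd74 among them, and the upper right 238 genes higher at both, among them Siglec1, Fpr1 and Lyz2.

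Ccr2, Clec4e and Cd74 were among the genes higher in R35A cells at 18 hpi and lower at 120 hpi. Ccr2 averaged 9.36 CPM in WT and 26.2 CPM in R35A cells at 18 hpi, and 2085 and 712 CPM at 120 hpi, a change of the log2 gap of −3.02 (SE 0.09). Clec4e went from 33.0 CPM in WT and 216 CPM in R35A cells to 956 and 402 CPM (−3.96, SE 0.062). Cd74 went from 50.3 and 83.5 CPM to 785 and 375 CPM (−1.80, SE 0.068). All 3 increased in both constructs after 18 hpi, and more in WT cells. Of the 26 scavenger and lectin receptors 20 were higher at 18 hpi, and the gap of 20 moved downward by 120 hpi. Of 19 class II genes 9 were higher at 18 hpi and 15 gaps moved downward. The macrophage markers had 14 of 15 higher at 18 hpi and 13 gaps moved downward, with 2 higher and 2 lower at 120 hpi.

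A change in the gap of Siglec1 was not detected by the thresholds, with 2.53 CPM in WT and 13.2 CPM in R35A cells at 18 hpi against 418 and 1766 CPM at 120 hpi (change of the log2 gap −0.29, SE 0.15, adjusted p = 0.152). Marco widened it, from 2.84 and 4.49 CPM to 13.1 and 102 CPM (2.29, SE 0.22). Lyz2 narrowed it, from 524 and 2303 CPM to 11073 and 20627 CPM (−1.24, SE 0.043). Irf7 was at 3.88 and 8.58 CPM at 18 hpi and at 113 and 282 CPM at 120 hpi (0.16, SE 0.16, adjusted p = 0.458). Spi1, with 44.2 CPM in WT and 115 CPM in R35A cells at 18 hpi, ended at 377 and 365 CPM (−1.43, SE 0.064). At 18 hpi the feeder sum was higher in WT libraries (15606 and 15332 CPM) than in R35A libraries (10762 and 10772 CPM), opposite to 120 hpi.

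**Figure D5:**
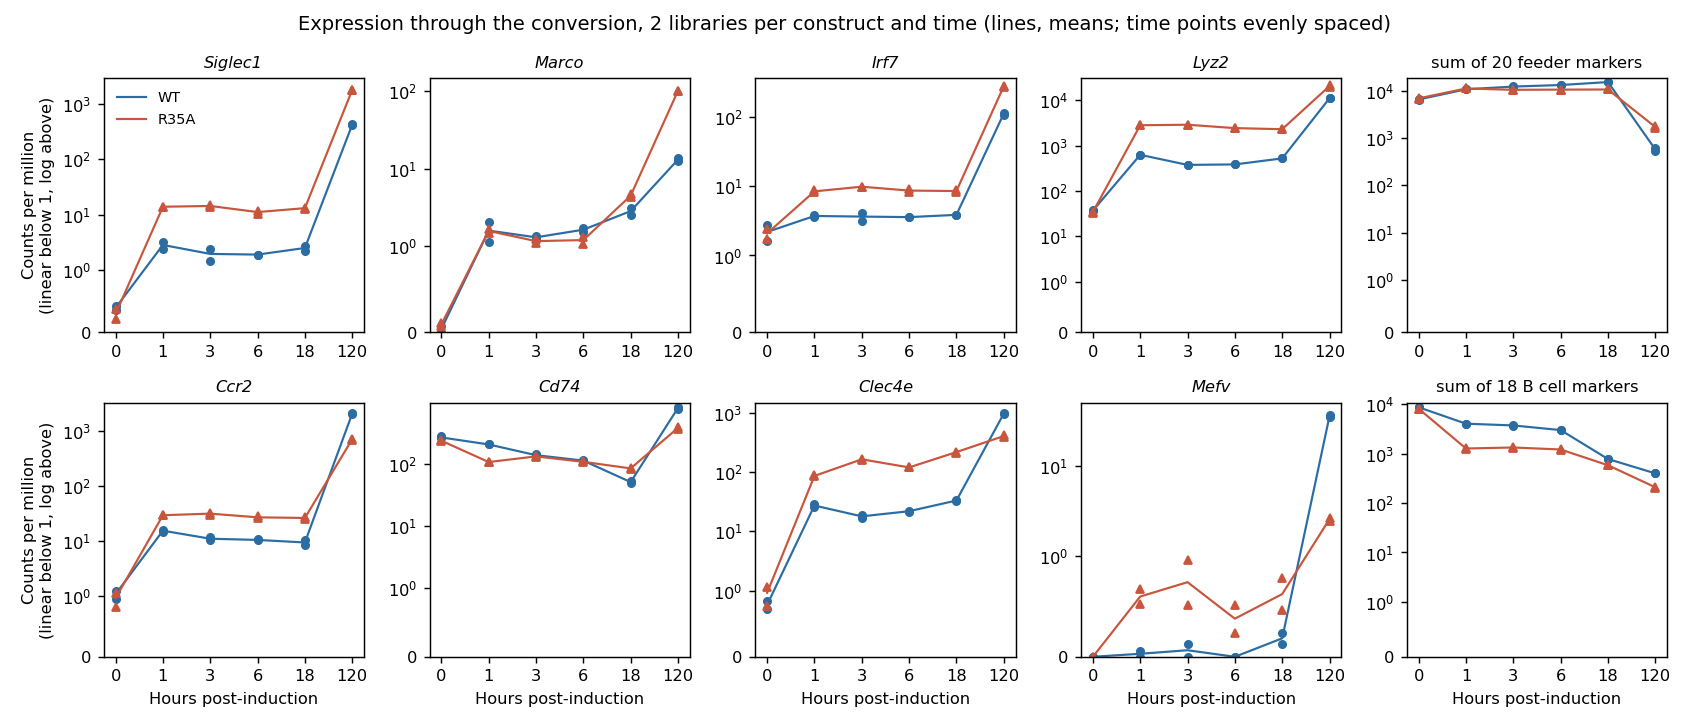
CPM (linear below 1, log above) of 8 genes and of the summed feeder and B cell markers at each of the 6 times from 0 to 120 hpi, with 2 WT (circles) and 2 R35A (triangles) libraries per time and lines through the means. Ccr2, Cd74, Clec4e and Mefv end higher in WT cells, Siglec1, Marco, Irf7 and Lyz2 in R35A cells.

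Between 18 and 120 hpi 10271 genes changed in WT cells (60.5%) and 9164 in R35A cells (53.9%). The change from 0 to 120 hpi differed between constructs for 2460 genes (14.5%), 1673 with a larger (9.85%) and 787 with a smaller (4.63%) log2 change in R35A cells. Of the 30 leading genes, which were chosen on the same values at 120 hpi, 25 passed this test and 5 did not, among them Marco, Mefv and F10, which were at or near 0 CPM in the starting cells.

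A second mutant, R35K, in which lysine replaces the same arginine, was deposited as a separate table with no WT libraries of its own. Its 2 libraries at 120 hpi were scaled together with the other libraries, which moves the values of a library by 1 factor for all genes, and batch and construct cannot be told apart for it. Under this scaling Marco stood at 14.8 and 13.3 CPM in WT, 109.5 and 106 CPM in R35A and 46.6 and 43.1 CPM in R35K libraries. Siglec1 stood at 456 and 436 CPM in WT, 1886 and 1860.3 CPM in R35A and 1597 and 1663 CPM in R35K libraries. Ccr2 stood at 2148 and 2301 CPM in WT, 739 and 771 CPM in R35A and 1227 and 1313 CPM in R35K libraries. Mefv stood at 38.6 and 36.8 CPM in WT, 2.64 and 2.81 CPM in R35A and 9.19 and 9.67 CPM in R35K libraries. In these 4 genes the R35K libraries lay between the other constructs, as they did in 27 of the 30 leading genes. In 16 of the 24 interferon-stimulated genes called higher both R35K libraries lay between, and in 6 both were at or below the higher WT library. These genes were chosen for differences between the same WT and R35A libraries, which makes a place between them likely. The share of all tested genes with R35K between was not counted, so these counts are no separate support. Isg15 was at 56.6 and 57.6 CPM in WT, 103 and 92.3 CPM in R35A and 47.4 and 42.5 CPM in R35K libraries, and Ifit2 at 99.5 and 101 CPM in WT, 171 and 170 CPM in R35A and 84.3 and 88.8 CPM in R35K libraries. Irf7, at 125 and 117 CPM in WT and 299 and 299 CPM in R35A libraries, was at 162 and 159.6 CPM in R35K libraries, and Thbs1 was at 6708 and 6901 CPM in R35K against 17203 and 17560.4 CPM in WT and 5319.7 and 5362 CPM in R35A libraries.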

How the data were processed

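RNA was measured by single-end 50-base sequencing of stranded poly(A) libraries. Per the labels and the study's methods, the authors aligned reads with STAR 2.5.0a to mm10 and deposited raw counts per gene. The annotation release and strand setting are not given in the sources used here. The authors also deposited log2 values, which were not used. The series has 36 libraries and no per-sample column was left unused for want of a label.

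Counts of 24 WT and R35A libraries in 12 groups (13044456 to 20580185 reads per library) were filtered with filterByExpr, scaled by TMM and fitted with edgeR 4.0.16 (limma 3.58.1, R 4.3.3) using the quasi-likelihood F test with 12 residual degrees of freedom, and p was adjusted by Benjamini-Hochberg over 16988 of 40354 genes. A gene was called at a fold of at least 1.5 and an adjusted p of at most 0.05. SE is the log2 fold change over the square root of F. With 2 libraries per group, p measures the spread between these libraries, which may be technical. The share of all tested genes without overlap between constructs was not counted, so non-overlap adds no support to a call. Genes at or under 3 counts in each library are given as at the floor, a floor that covers counting error only.

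Genes were named by this rule: the 15 largest increases and 15 largest decreases among called genes with at least 20 CPM in the higher construct and no overlap between replicates, pseudogenes and predicted genes left out; members of the lists, with their counts; and Cebpa and Spi1. The members and lists were chosen with earlier results of these data known. Positions are from GENCODE vM21, in which 97.07% of symbols matched, and promoters from RefSeq. On simulated counts for the comparison at 120 hpi (16988 genes), 25 of 50 genes changed by 1.5-fold and 48 of 50 changed by 2-fold were called. All 50 genes changed by 4-fold and all 50 changed by 8-fold were called, as were 3 of 16788 unchanged genes. The simulation gave each gene the same spread setting at all times, so the larger spread seen between replicates at 120 hpi was not built in. The simulation may therefore understate the false calls in the comparison at 120 hpi. Alternatives used DESeq2 1.42.0, other size factors, filters and thresholds, the 4 libraries alone, a replicate block and leaving out each library. The comparison with the feeder sum and the alternatives for 18 hpi and for the change from 0 hpi were chosen after seeing the data.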

Additional observations from a re-analysis of the deposited data

Results flagged for a closer look

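The difference between R35A and WT cells at 120 hpi was tested against that at 18 hpi in the edgeR fit and differed for 3791 genes, 1995 of them raised and 1796 lowered from 18 to 120 hpi. Of the 30 leading genes 27 passed this test and are given here; they were chosen by their differences at 120 hpi, which the test also uses, so the count itself is not a result. Among genes higher in R35A macrophages, the log2 gap rose by 4.27 for Pcdhac2, 3.52 for Htra1, 3.21 for Nov, 2.99 for Ch25h, 2.61 for Rnf128, 2.49 for Gfra4, 2.29 for Marco and 2.28 for Nat8l. Smaller rises were 1.74 for Serpinb2, 1.73 for Ly6a, 1.60 for Dclk1, 0.90 for Tarm1 and 0.71 for Akr1c18. Among genes lower in R35A macrophages, the gap moved by −5.44 for Mefv, −3.89 for Ace, −3.80 for F10, −3.38 for Cyp4f37, −2.70 for B3gnt5, −2.36 for Cytip, −2.10 for Rab44, −2.06 for Ndnf and −2.01 for Clec2i. The remaining values were −1.39 for Ighm, −1.38 for Itm2a, −1.18 for Ramp1, −0.87 for Cbfa2t3 and −0.85 for Htra3. The feeder sum differed between constructs in opposite directions at the 2 times, and its part in these changes was not tested. Groups of 2 libraries are too small to look for single outlying libraries.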

How the results depend on the processing

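The number of genes called at 120 hpi was 2777 with DESeq2, 3150 with DESeq2 size factors (1977 higher and 1173 lower), 3183 without a low-count filter, 3013 with at least 10 counts in both libraries of a group and 2914 in the 4 libraries alone, where 60.7% of calls were higher. With a 2-fold threshold 1920 genes were called (1353 higher, 567 lower), and with adjusted p alone 7822 (4592 higher, 3230 lower). With the feeder-scaled level under 10% of the difference, 802 of the higher genes were left. Leaving out 1 library at a time gave 2883 to 2986 calls, 1871 to 1989 higher and 984 to 1017 lower, 1541 to 1573 calls at 18 hpi, 2234 to 2411 for the change from 0 hpi, 3512 to 3666 for the change of the gap from 18 hpi and 240 to 257 for the members of the lists. Of 248 members called, 39 lost the call without 1 library and 10 in the fit of 4 libraries. For the change from 0 hpi the sign turned for Clec4b1 (1.82), Tlr5 (1.12), Ccl8 (−1.23), Mmp8 (1.05), Folr2 (−2.84), C4b (−0.075) and Pira2 (−1.33), and the cause was not tested.

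The replicate numbers did not pair the samples: the correlation of deviations was 0.0947 between WT and R35A at 120 hpi and had a median of −0.0038 over 66 pairs of groups. With the replicate number as a block 3180 genes were called, 3167 of them shared with the same sign. The 30 leading genes, chosen by large changes without overlap, kept their call in each fit at 120 hpi, which that choice makes likely. Of the 30, 5 (Marco, Tarm1, Mefv, Cyp4f37 and F10) were not called for the change from 0 hpi. Ctsg and Nlrp12, at 11 counts or fewer in each of the 4 libraries, and Cd177, at 26 to 40 counts, lost the call when any 1 of the 4 libraries was left out.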
